A study of Mus musculus with 6 samples.

Results

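Imprinted genes lying outside the Dlk1 to Meg3 cluster were followed on 6 Affymetrix mouse expression arrays, 3 from wild type and 3 from Setd2 knockout mouse embryonic stem cells (mESCs). The set comprised 36 listed genes in 16 clusters on 7 chromosomes, 18 of the genes on chromosome 7. Its members were all probe sets that the platform annotation assigns to 1 gene, that gene being listed. This gave 86 of the 45037 probe sets on the arrays and covered 34 of the 36 genes. Zrsr1 had no probe set of its own, and H19 was named only by a probe set that also names another gene, so neither was measured here. Of the 86 probe sets, 59 from 33 genes passed the filter on dim signals (a mean log2 signal over all 6 arrays of at least 5.27) and were tested, and 27 were too dim, among them the single probe set of Zim1. Both genotypes came from a mixed 129SV/C57BL/6 background and received no treatment. Cultures were kept on feeders, most of which were removed before RNA was taken by letting them settle on gelatin and passaging the rest without feeders. The labels call the 3 arrays of a genotype biological repeats. They do not say which part of Setd2 was deleted, how many clones stood behind each genotype or whether the repeats were separate cultures, so p-values measure the spread between these arrays.

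Imprinted genes are expressed from only the maternal or only the paternal copy, because a DNA methylation mark laid down in the egg or the sperm survives into the embryo. The marks lie in imprinting control regions, each of which governs a cluster of genes, often through a long noncoding RNA or an insulator. Many of the genes set the growth of the embryo and placenta, with paternally expressed genes such as Igf2 mostly favouring growth and maternally expressed genes such as Cdkn1c and Phlda2 mostly restraining it. SETD2 trimethylates histone H3 at lysine 36 along transcribed genes, and this mark guides DNA methylation over transcribed regions, including the marking of imprints in the egg. The arrays read the sum of both parental copies, and the parental assignments used below are textbook ones that were not measured in these cells.

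The promoters of the 5 genes that passed the threshold without or with a replicate block are shown first, since a match to the core letters bound by ZFP57 can be read directly in them. ZFP57 is the zinc finger protein that recognises TGCCGC when it is methylated and protects imprints in the early embryo and in mESCs. The windows run from 250 bases before to 50 after a transcription start, come from RefSeq (GRCm38.p6), and are written 5′ to 3′ along the gene's own strand. Capitals mark TGCCGC on either strand, so GCGGCA is the same motif read from the other strand. Zdbf2, with starts 72911 bases apart on the plus strand, is shown at both (chr1:63200108-63200407 and chr1:63273019-63273318). The others are Nap1l5 (chr6:58907077-58907376, minus strand), Nnat (chr2:157559828-157560127, plus strand), Grb10 (chr11:12037371-12037670, minus strand) and Peg3 (chr7:6730370-6730669, minus strand).
Zdbf2 upstream start: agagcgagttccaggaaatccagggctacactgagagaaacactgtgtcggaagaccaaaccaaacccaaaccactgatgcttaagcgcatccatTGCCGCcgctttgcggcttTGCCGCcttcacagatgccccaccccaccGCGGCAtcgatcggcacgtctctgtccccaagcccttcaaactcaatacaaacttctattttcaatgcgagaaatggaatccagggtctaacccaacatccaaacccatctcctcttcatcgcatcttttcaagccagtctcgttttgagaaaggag
Zdbf2 downstream start: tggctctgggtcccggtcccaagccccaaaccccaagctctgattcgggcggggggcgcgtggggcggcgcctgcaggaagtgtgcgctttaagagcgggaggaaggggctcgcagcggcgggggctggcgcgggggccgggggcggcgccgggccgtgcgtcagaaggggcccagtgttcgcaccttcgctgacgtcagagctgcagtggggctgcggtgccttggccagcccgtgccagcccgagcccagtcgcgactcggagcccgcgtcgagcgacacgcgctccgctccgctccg
Nap1l5: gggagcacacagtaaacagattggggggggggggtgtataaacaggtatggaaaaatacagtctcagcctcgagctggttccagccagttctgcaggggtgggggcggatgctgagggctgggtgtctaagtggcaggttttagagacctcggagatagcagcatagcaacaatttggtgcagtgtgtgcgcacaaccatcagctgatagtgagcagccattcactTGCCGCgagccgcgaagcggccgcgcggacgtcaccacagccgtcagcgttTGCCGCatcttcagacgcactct
Nnat: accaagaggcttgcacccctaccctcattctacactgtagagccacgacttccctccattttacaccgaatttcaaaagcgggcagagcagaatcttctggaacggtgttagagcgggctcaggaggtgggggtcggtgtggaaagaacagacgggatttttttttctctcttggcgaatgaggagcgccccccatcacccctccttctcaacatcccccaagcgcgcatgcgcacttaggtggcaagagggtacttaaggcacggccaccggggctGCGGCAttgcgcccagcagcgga
Grb10: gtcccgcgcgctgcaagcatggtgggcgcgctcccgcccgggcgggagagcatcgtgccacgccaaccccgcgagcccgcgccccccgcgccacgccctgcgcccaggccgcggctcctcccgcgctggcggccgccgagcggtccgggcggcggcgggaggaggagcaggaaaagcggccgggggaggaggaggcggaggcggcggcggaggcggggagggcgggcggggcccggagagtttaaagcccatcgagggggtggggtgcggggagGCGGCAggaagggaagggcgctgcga
Peg3: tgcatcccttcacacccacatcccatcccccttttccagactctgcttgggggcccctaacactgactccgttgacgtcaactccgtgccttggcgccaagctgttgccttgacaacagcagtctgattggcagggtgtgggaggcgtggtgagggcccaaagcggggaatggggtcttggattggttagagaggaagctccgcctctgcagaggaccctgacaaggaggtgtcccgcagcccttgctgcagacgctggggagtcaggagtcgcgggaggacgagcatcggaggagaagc

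The upstream window of Zdbf2 held 3 matches, 2 forward and 1 reverse, while its downstream window held 0 and was richer in CpG (38 against 15 CpG sites). Nap1l5 held 2 matches, Nnat and Grb10 1 each and Peg3 0. A second Grb10 window and the Usp29 window, which shares 263 bases with that of Peg3, held 0. Promoter windows were found for 32 of the 36 listed genes. TGCCGC was present in 13 of their 48 windows (27.1%), against 3813 of all 32851 promoter windows of the same length (11.6%). Windows of 1 gene can overlap, as at Mest, where windows starting at chr6:30737800 and chr6:30737803 were both counted with matches. Counted by gene, TGCCGC was present in 12 of 32, against 3527 of 27025. By parental copy it was present in 9 of 26 windows of paternally expressed and in 3 of 16 windows of maternally expressed members. The member windows were also richer in CpG, with a median of 17 CpG sites against 7 over all windows. These are matches of letters in a fixed window. Binding and DNA methylation were not measured.

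Values below are log2 signals from MAS5, the Affymetrix algorithm that reduces the probes of a probe set to 1 signal, and a difference is the knockout mean minus the wild type mean. Signals of different probe sets are not compared with each other. Calls are limma adjusted p below 0.05 over all 27022 tested probe sets. The single Setd2 probe set fell from 10.30 ± 0.01 to 9.49 ± 0.12 (SD, n = 3 each; limma adjusted p = 0.0272), and 0.000744 with the array number as a block, called the replicate block below. The arrays numbered 1 stood apart from those numbered 2 and 3 along the first principal component (38.0% of variance), in both genotypes. Array medians lay between 6.09 and 6.22. The genotypes also differed in the Y-linked gene Eif2s3y (4.92 ± 0.40 in wild type and 11.30 ± 0.23 in knockout cells, SD, n = 3 each) and along chromosome 8, where the median difference of 710 genes was -0.34. Effects of Setd2 and differences between the cell lines therefore cannot be told apart. No member of the set lies on chromosome 8. In such bulk RNA, fewer cells of a type and less RNA per cell cannot be told apart either.

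Across the imprinted genes most signals differed little between genotypes, and a few differed by large amounts. Without the block 1 of the 59 tested probe sets passed the threshold, Zdbf2, which fell, against 0.648% of all tested probe sets, 0.274% higher and 0.374% lower. With the replicate block 6 passed, against 7.88% of all tested probe sets, 3.49% higher and 4.39% lower: Zdbf2, Nap1l5 and 2 probe sets of Peg3 fell, and Grb10 and Nnat rose. The share of members called was thus near that of the array as a whole with the block. All 3 knockout arrays lay outside the wild type range at 7 of the 59 probe sets, 3 above and 4 below, against 18.1% of all tested probe sets, 9.16% above and 8.99% below. The median difference over the 33 tested genes, each at its brightest tested probe set, was -0.03, and the median size regardless of sign was 0.18, the same as over all 12915 genes. For 23 of the 33 genes the 95% interval of the difference lay within 1 log2 unit of 0 on both sides. Without both arrays numbered 1, a setting added once the values were known, 7 member probe sets passed against 7.52% of all tested, 2 higher (background 3.4%) and 5 lower (4.12%): Nap1l5 dropped out and Cdkn1c and Plagl1, lower in knockout cells, came in.

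**Figure D1:**
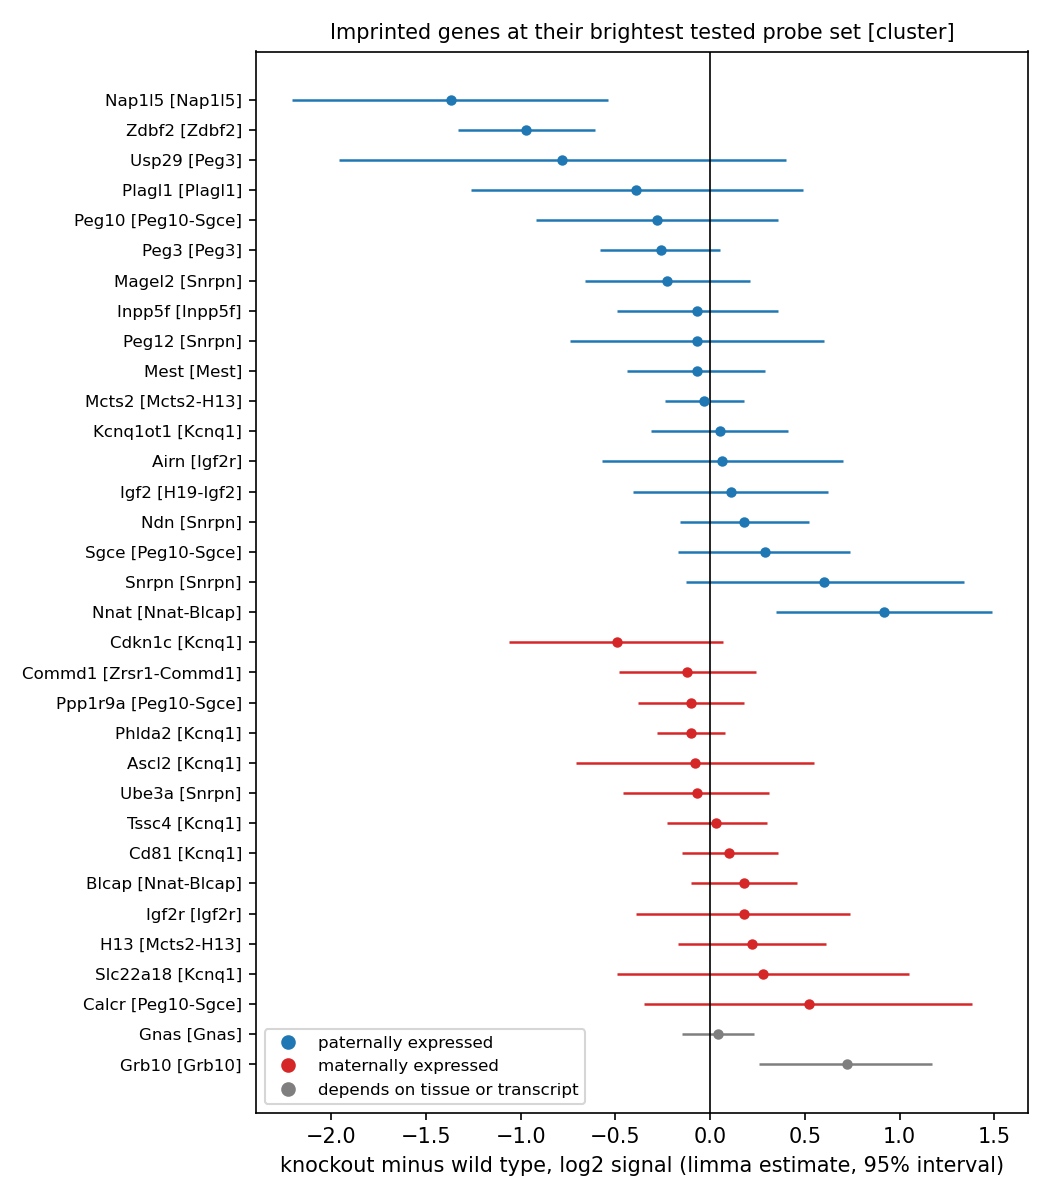
Knockout minus wild type difference in log2 signal (points) with its 95% interval (bars, limma, 3 arrays per genotype) for the 33 tested imprinted genes, taking the brightest tested probe set of each, coloured by the parental copy known to be expressed. Nap1l5, Zdbf2, Grb10 and Nnat are the 4 genes whose interval leaves out 0, and the paternally expressed genes span -1.37 to 0.92.

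Zdbf2, a paternally expressed zinc finger gene whose long upstream transcript is known to act in the pluripotent embryo, gave the clearest change. It read 11.10, 11.35 and 11.34 on wild type arrays 1, 2 and 3, and 9.98, 10.48 and 10.42 on the knockout arrays. Every knockout array lay below every wild type array, and the gap held within each array number, at -1.12, -0.86 and -0.92. The difference of -0.97 ± 0.16 (SE), or 1.96-fold, passed (limma adjusted p = 0.0397), and with the block its adjusted p was 0.000123. The unblocked call depended on single arrays: dropping wild type array 1, 2 or 3 gave limma adjusted p of 0.0616, 0.221 and 0.258, dropping knockout array 2 or 3 gave 0.102 and 0.121, and only dropping knockout array 1 left it in place (0.0193). It was also lost when the variance was not trended on signal (0.135). Across these single-array omissions the difference ran from -1.06 to -0.81. Which of the starts shown above the probe set reads was not analysed here. Zdbf2 lies between Gpr1 and Adam23 in the gene order of GRCm38.p6. Adam23, a cell adhesion gene, had the opposite sign. It read 8.08, 7.79 and 7.73 in wild type and 8.99, 8.69 and 8.70 in knockout cells, a difference of 0.92 (limma adjusted p = 0.0629) that passed with the replicate block (adjusted p = 0.00195). Another Adam23 probe set differed by 0.29 (95% interval -0.39 to 0.97). Gpr1, a chemerin receptor gene, differed by 0.45 (-0.23 to 1.12).

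Nap1l5, Nnat, Mcts2 and Zrsr1 are small paternally expressed genes that sit inside or beside a larger host gene, and most arose as retrocopies. Nap1l5, a nucleosome assembly protein family gene within Herc3, read 6.89, 6.57 and 7.48 in wild type and 5.38, 6.24 and 5.20 in knockout cells. The genotypes did not overlap, but the gap varied from -1.51 and -2.29 within numbers 1 and 3 to -0.33 within number 2. Its difference of -1.37 ± 0.36 (SE) missed the threshold (limma adjusted p = 0.176), and it fell with the replicate block (adjusted p = 0.0408). Without both arrays numbered 1 it missed (0.0954), and 2 of its knockout values lay at or near the filter value of 5.27, so its 2.59-fold ratio rests partly on dim signals. The host Herc3 differed by 0.00 (95% interval -0.68 to 0.67) at its brightest probe set and by -0.37 (-1.09 to 0.36) at 1431202_at.

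Nnat, a paternally expressed gene for a membrane proteolipid of developing neurons, was higher in knockout cells. It read 7.63, 7.04 and 6.74 in wild type and 8.10, 7.89 and 8.18 in knockout cells. All knockout arrays lay above all wild type arrays, with gaps of 0.47, 0.85 and 1.44 within numbers 1 to 3. The difference of 0.92 ± 0.25 (SE), 1.89-fold, missed the threshold (limma adjusted p = 0.183) and passed with the replicate block (adjusted p = 0.0192). Its host Blcap, an apoptosis-linked gene whose main transcript is maternally biased in brain, also lay higher on every knockout array (9.76, 9.61 and 9.69 against 9.46, 9.47 and 9.58). That difference was 0.18 (95% interval -0.10 to 0.46) and missed the threshold in both fits (limma adjusted p = 0.647, and 0.326 with the block).
Markers of neural cells did not move one way with Nnat. Of 5 tested markers 0 passed without the block, where 2 had an unadjusted p below 0.05. With the block 2 fell and 0 rose, Sox1 and Tubb3, both on chromosome 8. Over all 12915 genes 1736 had an unadjusted p below 0.05, and with the block 5.75% fell and 4.13% rose. Nes and Map2 were higher on the knockout array of every number, by 0.63 and 0.58 on average, and missed the threshold (limma adjusted p = 0.0515 and 0.0871 with the block). The summed signal of the 5 markers ran from 1564 to 1946 in wild type and from 1187 to 1381 in knockout cells. That sum weighs the bright Tubb3 most (mean 9.97 in wild type and 9.21 in knockout cells). The mean log2 signal of the 5 overlapped, at 7.85, 8.04 and 7.76 in wild type and 7.81, 7.90 and 7.55 in knockout cells. Neurog2 was too dim to be tested.

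The other host pairs differed little. Mcts2, a retrocopy of a translation factor gene within H13, read 11.47, 11.51 and 11.49 in wild type and 11.36, 11.48 and 11.53 in knockout cells, a difference of -0.03 (95% interval -0.24 to 0.18). Signal from its parent gene on the same probes is possible, so this value is uncertain for Mcts2. H13, the signal peptide peptidase gene, differed by 0.22, 0.26 and 0.16 at its 3 tested probe sets (limma adjusted p from 0.695 to 0.908). Commd1, the host of Zrsr1 and a regulator of copper handling, differed by -0.12 (-0.48 to 0.24) and -0.01 at its tested probe sets. Inpp5f, a phosphoinositide phosphatase gene with an imprinted internal transcript, differed by -0.07 (-0.49 to 0.36) and -0.46 (-1.04 to 0.13), neither past the threshold with or without the block.

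**Figure D2:**
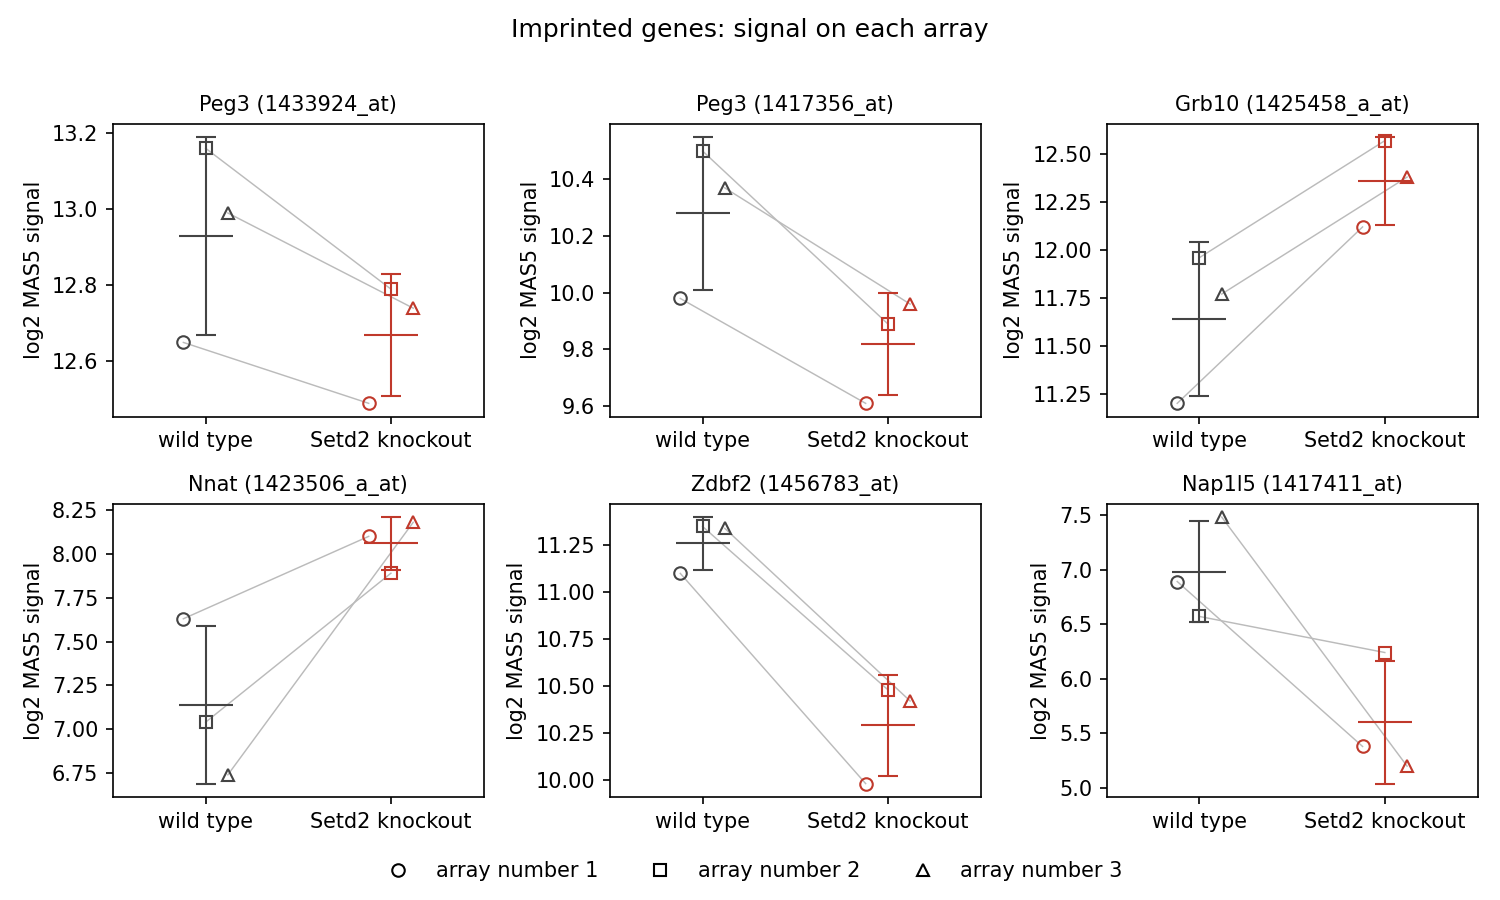
Log2 MAS5 signal on each array for the 6 imprinted probe sets past the threshold without or with the replicate block. Symbols give the array number, grey lines join arrays of the same number, and horizontal bars with whiskers are the mean ± SD (n = 3). In each panel every grey line slopes the same way; the genotypes overlap only at the Peg3 probe set 1433924_at.

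In the Peg3 cluster on chromosome 7, Peg3 and Usp29 share a bidirectional promoter and are expressed from the paternal copy, while Zim1 is maternal. Peg3 encodes a large zinc finger protein known for maternal behaviour and growth. Its probe set 1417356_at read 9.98, 10.50 and 10.37 in wild type and 9.61, 9.89 and 9.96 in knockout cells, with all knockout arrays just below all wild type arrays. The difference was -0.46 ± 0.17 (SE), 1.38-fold (limma adjusted p = 0.330), and it fell with the replicate block (adjusted p = 0.0135). A brighter probe set, 1433924_at, read 12.65, 13.16 and 12.99 against 12.49, 12.79 and 12.74, with overlap between the genotypes through wild type array 1. It differed by -0.26 and also fell with the block (limma adjusted p = 0.528, and 0.0317 with the block). The third tested probe set, 1417355_at, differed by -0.08 (95% interval -0.37 to 0.20). Peg3 thus fell by a small amount at 2 of 3 probe sets with the block, and both also passed without both arrays numbered 1 (limma adjusted p = 0.0132 and 0.0283). Usp29, a ubiquitin protease gene, differed by -0.78 with a wide interval (-1.96 to 0.40), as knockout array 1 read 3.77 and the other arrays 5.41 to 5.96. Zim1 was too dim to be tested, at 4.82, 5.39 and 5.77 in wild type and 5.19, 2.81 and 4.72 in knockout cells.

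Grb10, an adaptor that restrains insulin and Igf receptor signalling, is maternally expressed in most tissues and paternally expressed in neurons. Its brightest probe set (1425458_a_at) read 11.20, 11.96 and 11.77 in wild type and 12.12, 12.57 and 12.38 in knockout cells. All knockout arrays were higher, and the gaps of 0.93, 0.62 and 0.61 within array numbers were close to each other. The difference of 0.72 ± 0.20 (SE), 1.64-fold, missed the threshold without the block (limma adjusted p = 0.193) and passed with it (adjusted p = 0.000561) and without both arrays numbered 1 (0.00347). A second probe set differed by 0.65 (limma adjusted p = 0.519, and 0.0618 with the block), and the third, near the filter value, by -0.16 (95% interval -0.98 to 0.66). Of the genes next to Grb10, Ddc, the aromatic amino acid decarboxylase gene, read 10.03, 11.10 and 11.13 against 9.22, 10.17 and 10.36. It differed by -0.84 (limma adjusted p = 0.428) and fell with the replicate block (adjusted p = 0.000363), opposite in sign to Grb10. Cobl, on the other side, differed by -0.23 (-0.58 to 0.13).

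The Igf2 axis itself showed no call. Igf2, the paternally expressed fetal growth factor, read 8.24, 8.84 and 9.00 in wild type and 8.77, 8.60 and 9.02 in knockout cells, with full overlap. Its difference was 0.11 (95% interval -0.41 to 0.62), and its sign turned without wild type array 1 (-0.12). Igf2r, the maternally expressed receptor that clears Igf2 from the cell surface, read 9.64, 9.24 and 8.95 in wild type and 9.92, 9.31 and 9.13 in knockout cells. It differed by 0.18 (-0.39 to 0.74), and by 0.09 (-0.49 to 0.67) at its other probe set. Airn, the paternally expressed noncoding RNA that silences Igf2r on the same chromosome, differed by 0.06 (-0.57 to 0.70) at the 1 of its 5 probe sets that was tested. Levels of that probe set, from 5.58 to 5.94, lay close to the filter value.
Of 17 other genes of the growth factor axis, 15 were tested and 0 passed limma's threshold without the block. There 3 had an unadjusted p below 0.05, against 1736 of all 12915 genes. The median difference of the list was 0.07, against 0.00 over all genes. With the block 2 rose and 0 fell, against 4.13% and 5.75% of all genes. Both that rose encode secreted binding proteins that hold Igfs in the medium. Igfbp3 read 8.11, 8.04 and 8.09 against 8.72, 8.75 and 8.58, a difference of 0.60 (limma adjusted p = 0.125, and 0.0175 with the block). Igfbp2 differed by 0.24 (0.319, and 0.0364 with the block), and was not called without both arrays numbered 1 (0.111). Igf2bp1 differed by -0.06 at the brightest probe set, which was the one counted. Its probe set 1418761_at differed by 0.36 and passed with the block (limma adjusted p = 0.0151) and without both arrays numbered 1 (0.00949). Other Igf2bp1 probe sets differed by -0.07 and 0.21 and did not pass. The receptor genes Igf1r and Insr differed by 0.32 (95% interval -0.26 to 0.90) and -0.21 (-0.97 to 0.55), Insr lying on chromosome 8.

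The Kcnq1 cluster held 7 tested genes with differences from -0.49 to 0.28 and a median of 0.03. Of its 12 tested probe sets 0 passed limma's threshold in either fit. Over all tested probe sets 0.648% passed without the block and 7.88% with it. In the fit without the block 0 of the 12 had an unadjusted p below 0.05, against 3153 of all 27022. Kcnq1ot1, the paternally expressed noncoding RNA that silences the cluster, differed by 0.05 (95% interval -0.31 to 0.41) at its brightest of 4 tested probe sets and by -0.08, -0.17 and 0.68 at the others. Whether signal from the overlapping Kcnq1 gene enters these values was not checked. Of the targets of Kcnq1ot1, Cdkn1c, the cell cycle inhibitor p57, read 9.67, 10.74 and 10.25 in wild type and 9.64, 9.86 and 9.68 in knockout cells. Wild type array 1 sat among the knockout arrays, while the gaps within numbers 2 and 3 were -0.89 and -0.57. Cdkn1c differed by -0.49 (-1.06 to 0.07; limma adjusted p = 0.496, and 0.0608 with the block) and passed only without both arrays numbered 1 (-0.73, adjusted p = 0.0181), as a gene named after its values were seen.
Phlda2, a restrainer of placental growth, read 12.64, 12.84 and 12.76 in wild type and 12.60, 12.69 and 12.65 in knockout cells, a difference of -0.10 (95% interval -0.28 to 0.08). Ascl2, a transcription factor of the trophoblast, differed by -0.08, 0.27 and 0.04 at its 3 probe sets. Cd81, a tetraspanin, and Tssc4 differed by 0.10 (-0.15 to 0.36) and 0.03 (-0.23 to 0.30), and the transporter gene Slc22a18 by 0.28 (-0.49 to 1.05).
Beside these placental genes, markers of trophoblast were examined. Of 8 markers 6 were tested, with Elf5 and Gata3 too dim. None of the 6 passed limma's threshold without the block, where 2 had an unadjusted p below 0.05, and with the block 2 rose, Cdx2 and Krt18. Without both arrays numbered 1 neither was called (limma adjusted p = 0.179 and 0.274). The median difference of the 6 was 0.43, and 5 were positive. Krt8 at 1435989_x_at, not its brightest, differed by 1.05 and passed with the block (limma adjusted p = 0.00129) and without those arrays (0.0324). Eomes at 1426001_at differed by 0.70 and passed without those arrays (0.0494) but not with the block (0.118). Other dimmer probe sets, of Krt8 (0.11) and Tfap2c (0.35 and 0.25), passed in neither. Over all 12915 genes 1736 had an unadjusted p below 0.05 without the block, and 4.13% rose with it. The summed signal ran from 2043 to 3907 in wild type and from 2418 to 5397 in knockout cells. Their part in the values of Phlda2 and Ascl2 was not tested.

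The Snrpn cluster, whose human counterpart underlies the Prader-Willi and Angelman syndromes, had no call among 13 tested probe sets of 5 genes in either fit. No unadjusted p in the limma fit without the block was below 0.05, against 3153 of all 27022 tested probe sets. Over the whole array 0.648% of tested probe sets passed without the block and 7.88% with it. Ndn, the paternally expressed gene of the growth suppressor necdin, was read by 5 tested probe sets, all with small positive differences between 0.05 and 0.21. Its brightest read 10.10, 10.35 and 10.28 in wild type and 10.14, 10.57 and 10.56 in knockout cells. Snrpn, a splicing protein gene, differed by 0.60 (95% interval -0.13 to 1.34) at the 1 probe set that names it alone, and 6 more that name it together with another gene were not used. Magel2 and Peg12 differed by -0.23 (-0.66 to 0.21) and -0.07 (-0.74 to 0.60). Ube3a, the ubiquitin ligase gene that is maternally expressed in neurons, differed by -0.07 (-0.46 to 0.31) at its brightest of 5 tested probe sets and by -0.29 to 0.32 at the rest.

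Of the clusters on chromosome 6, Mest, a paternally expressed hydrolase gene of mesoderm, read 10.07, 10.50 and 10.59 in wild type and 10.20, 10.31 and 10.44 in knockout cells. Its difference was -0.07 (95% interval -0.44 to 0.29). Peg10, derived from a retrotransposon and needed for the placenta, and its neighbour Sgce, a sarcoglycan gene, are both paternally expressed and share a promoter region. They differed by -0.28 (-0.92 to 0.36) and 0.29 (-0.17 to 0.74). Ppp1r9a, a neuronal scaffold gene imprinted in the placenta, differed by -0.10 at its brightest probe set (9.53, 9.55 and 9.50 against 9.36, 9.41 and 9.52). A second, 1456072_at, read 9.32, 9.37 and 9.33 against 9.12, 9.03 and 9.08, below in every knockout array by a small amount (-0.26; limma adjusted p = 0.461, and 0.169 with the block). Calcr, the calcitonin receptor gene, differed by 0.52 (-0.35 to 1.38), near the filter value. Casd1, next to Sgce, encodes a sialic acid acetyltransferase and read 8.88, 9.25 and 9.11 against 9.26, 9.86 and 9.61. It differed by 0.50 (limma adjusted p = 0.337) and rose with the replicate block (adjusted p = 0.0165).

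Plagl1, a paternally expressed zinc finger gene known to regulate other imprinted genes, gave a result that turned on 1 array. It read 10.49, 10.18 and 10.23 in wild type and 10.95, 9.31 and 9.49 in knockout cells. Knockout array 1 was the highest of all 6, while knockout arrays 2 and 3 were the lowest. The difference was -0.39 (95% interval -1.26 to 0.49; limma adjusted p = 0.775, and 0.303 with the block). Without knockout array 1 it was -0.90 (limma adjusted p = 0.0248), and without both arrays numbered 1 -0.81 (0.00219). Gnas, the gene of the stimulatory G protein alpha subunit with maternal, paternal and biallelic transcripts, differed by 0.04 (-0.15 to 0.23) at its brightest probe set, with all arrays between 11.92 and 12.08.

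Grouped by parental copy, with Grb10 and Gnas left out of both groups because the copy they use depends on tissue or transcript, 18 paternally expressed genes were tested at their brightest probe set. In the limma fit without the block 3 of the 18 had an unadjusted p below 0.05, against 1736 of all 12915 genes. There 1 was called, Zdbf2, against 0.736% of all genes. With the replicate block 3 fell (Zdbf2, Nap1l5 and Peg3) and 1 rose (Nnat), against 5.75% and 4.13% of all genes. Differences of the 18 ranged from -1.37 to 0.92 with a median of -0.07, and 11 of the 18 were negative. Of 13 maternally expressed genes 0 passed limma's threshold in either fit, against 0.736% of all genes without the block and 9.87% with it. Without the block 0 of the 13 had an unadjusted p below 0.05, against 1736 of all 12915 genes. Without both arrays numbered 1, 1 of the 13 was called, Cdkn1c, which was lower (background 5.56%). Grb10, which is maternally expressed in most tissues and rose with the block, would add 1 call to this group if counted there. They ranged from -0.49 to 0.52 with a median of 0.03, and 6 of the 13 were negative. The difference between the parental groups was not tested. The mean signal over the paternally expressed genes was 8.36, 8.47 and 8.50 on the wild type arrays and 8.22, 8.39 and 8.33 on the knockout arrays. Over the maternally expressed genes it was 9.73, 9.86 and 9.76 against 9.95, 9.71 and 9.83. By the mean the genotypes overlapped in the second group, and in the first only wild type array 1 fell below a knockout array. The median over the paternally expressed genes went the other way. It was 7.93, 8.13 and 8.20 on the wild type arrays and 8.43, 8.25 and 8.42 on the knockout arrays. Over the maternally expressed genes the medians overlapped (9.64, 9.86 and 9.97 against 9.89, 9.86 and 9.69).

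Many probe sets of imprinted genes shifted with array number in both genotypes, as did most of the array as a whole. On the arrays numbered 1, 33 of the 59 tested probe sets were lower than on the other arrays in both genotypes and 13 were higher in both. The same sign in both genotypes was thus found at 78.0% of member probe sets, against 69.9% of all tested probe sets. By correlation between the genotypes the order was the reverse, with Pearson r of 0.39 over the members and 0.50 over all tested probe sets. Probe sets of 1 gene were counted separately. The median size of the array number effect was 0.36 over the members, against 0.26 over all tested probe sets, and the median size of the genotype difference was 0.18 in both. These contrasts rest on different numbers of arrays and so carry different errors. Grb10, Snrpn, Cdkn1c, Mest and Ndn read low on the arrays numbered 1, and Igf2r, Ascl2, Slc22a18 and Plagl1 read high there.
Fibroblast markers moved with array number too. Of 20 feeder fibroblast markers 19 were tested, Lum being too dim, and on the arrays numbered 1 13 were lower and 4 higher in both genotypes, against 8624 lower and 10254 higher of all 27022 tested probe sets. Their mean log2 signal was 8.16, 8.69 and 9.11 on the wild type arrays and 8.02, 9.04 and 8.94 on the knockout arrays. The summed signal ran from 17324 to 27441 in wild type and from 20315 to 25965 in knockout cells, so the genotypes overlapped, and no marker was at 0 on any array (lowest 4.93). By genotype 0 of the 19 passed limma's threshold, with 1 at an unadjusted p below 0.05, and with the replicate block 1 rose, Fn1 (fibronectin). Over all 12915 genes 1736 had an unadjusted p below 0.05 without the block, and 9.87% passed with it. The part of feeder cells in the values of single imprinted genes was not tested. Of 9 tested embryonic stem cell markers the lowest value on any array was 10.45. With and without the block 1 of the 9 was called, Zfp42 on chromosome 8, which fell. Over all genes 0.736% were called without the block and 9.87% with it.

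**Figure D3:**
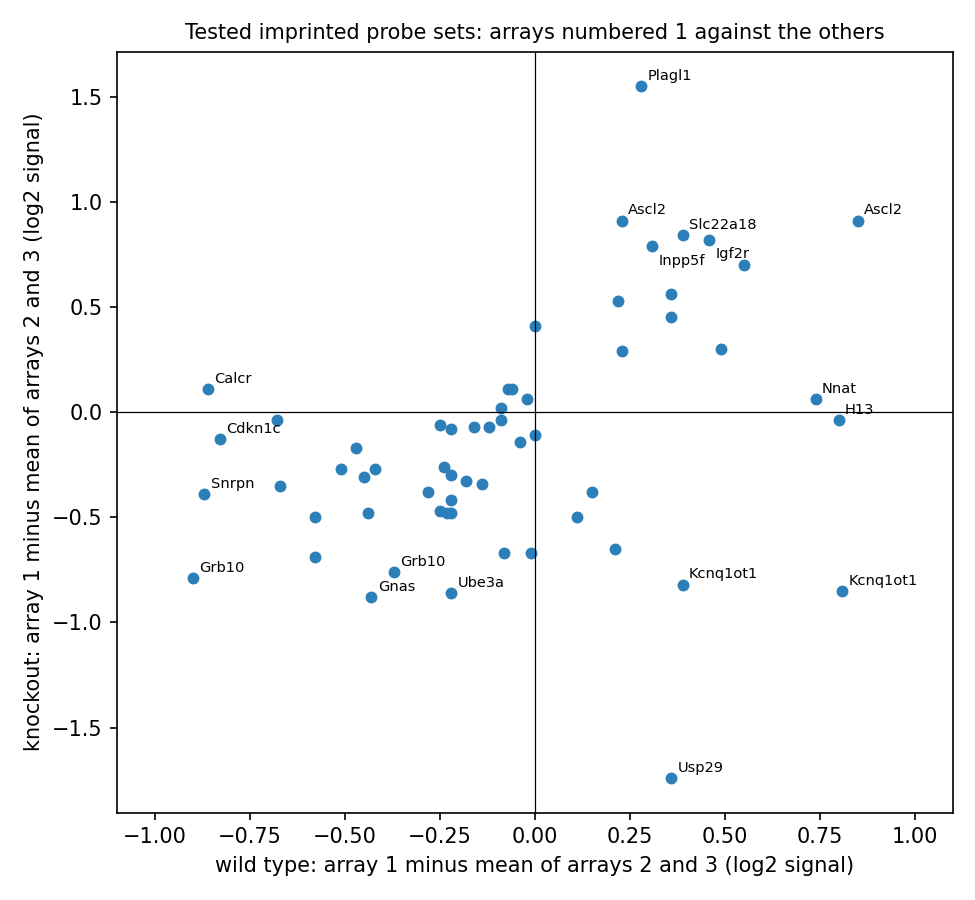
For the 59 tested imprinted probe sets, the log2 signal on the array numbered 1 minus the mean of arrays 2 and 3, in wild type (horizontal) and knockout cells (vertical). Points in the lower left and upper right quadrants (33 and 13) shift the same way in both genotypes; Plagl1, Usp29 and 2 probe sets of Kcnq1ot1 lie far from the diagonal.

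Genes that set, protect or erase imprints were examined as a list of 26, of which 24 were tested. Without the block 1 fell and 0 rose, against 0.736% of all genes called in either direction. With the replicate block 3 fell and 2 rose, against 5.75% and 4.13% of all genes. The median difference was -0.01, against 0.00 over all genes. The 1 call in both fits was Zfp42 (Rex1), a zinc finger protein of naive pluripotent cells on chromosome 8, which read 13.42, 13.15 and 13.25 in wild type and 11.40, 11.25 and 11.19 in knockout cells. Dppa3 (Stella), which shields imprints from demethylation in the zygote, read 9.83, 8.90 and 9.18 against 10.37, 9.78 and 10.16. It differed by 0.80 (limma adjusted p = 0.256) and rose with the block (adjusted p = 0.00188).
The de novo methyltransferases, which are recruited to H3K36 methylation, had opposite signs at their brightest probe sets. Dnmt3a differed by -0.47 (limma adjusted p = 0.379, and 0.0286 with the block) and Dnmt3b by 0.40 (0.186, and 0.00985 with the block), each with no overlap between genotypes. Without both arrays numbered 1 this Dnmt3a probe set differed by -0.29 and was not called (limma adjusted p = 0.156). Another Dnmt3a probe set, 1460324_at, differed by 0.41 (limma adjusted p = 0.377), so the Dnmt3a probe sets did not share 1 sign. Those at 1423064_at and 1423065_at differed by -0.61 and -0.66 and fell with the block (adjusted p = 0.00244 and 0.00228). Both also passed without both arrays numbered 1 (-0.48 and -0.57, limma adjusted p = 0.0038 and 0.0134). The last, 1423063_at, differed by -0.02. Ctcf, the insulator protein of the H19 control region, lies on chromosome 8, differed by -0.38 (0.358) and fell with the block (adjusted p = 0.00674). Zfp57 and its partner Trim28 differed by -0.31 (95% interval -0.71 to 0.08) and -0.04 (-0.18 to 0.11). The maintenance methyltransferase gene Dnmt1 and its cofactor Uhrf1 differed by -0.01 (-0.20 to 0.18) and 0.03 (-0.26 to 0.31).

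Of 36 genes in or near the imprinted clusters that are not members, 25 were tested. Between 0 and 5 other genes lay between each of the 36 and its nearest member. None passed limma's threshold without the block, where 6 had an unadjusted p below 0.05, and with the block 2 rose and 3 fell. Over all 12915 genes 1736 had an unadjusted p below 0.05, and with the block 4.13% rose and 5.75% fell. The median difference of the list was -0.04. Besides Adam23, Casd1 and Ddc its calls with the block were Id1, an inhibitor of helix-loop-helix factors next to Mcts2, and Bag3, a cochaperone gene next to Inpp5f. Id1 differed by -0.67 (limma adjusted p = 0.518, and 0.00109 with the block) and Bag3 by -0.53 (0.230, and 0.0484 with the block). Bag3 was not called without both arrays numbered 1 (limma adjusted p = 0.120).

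**Figure D4:**
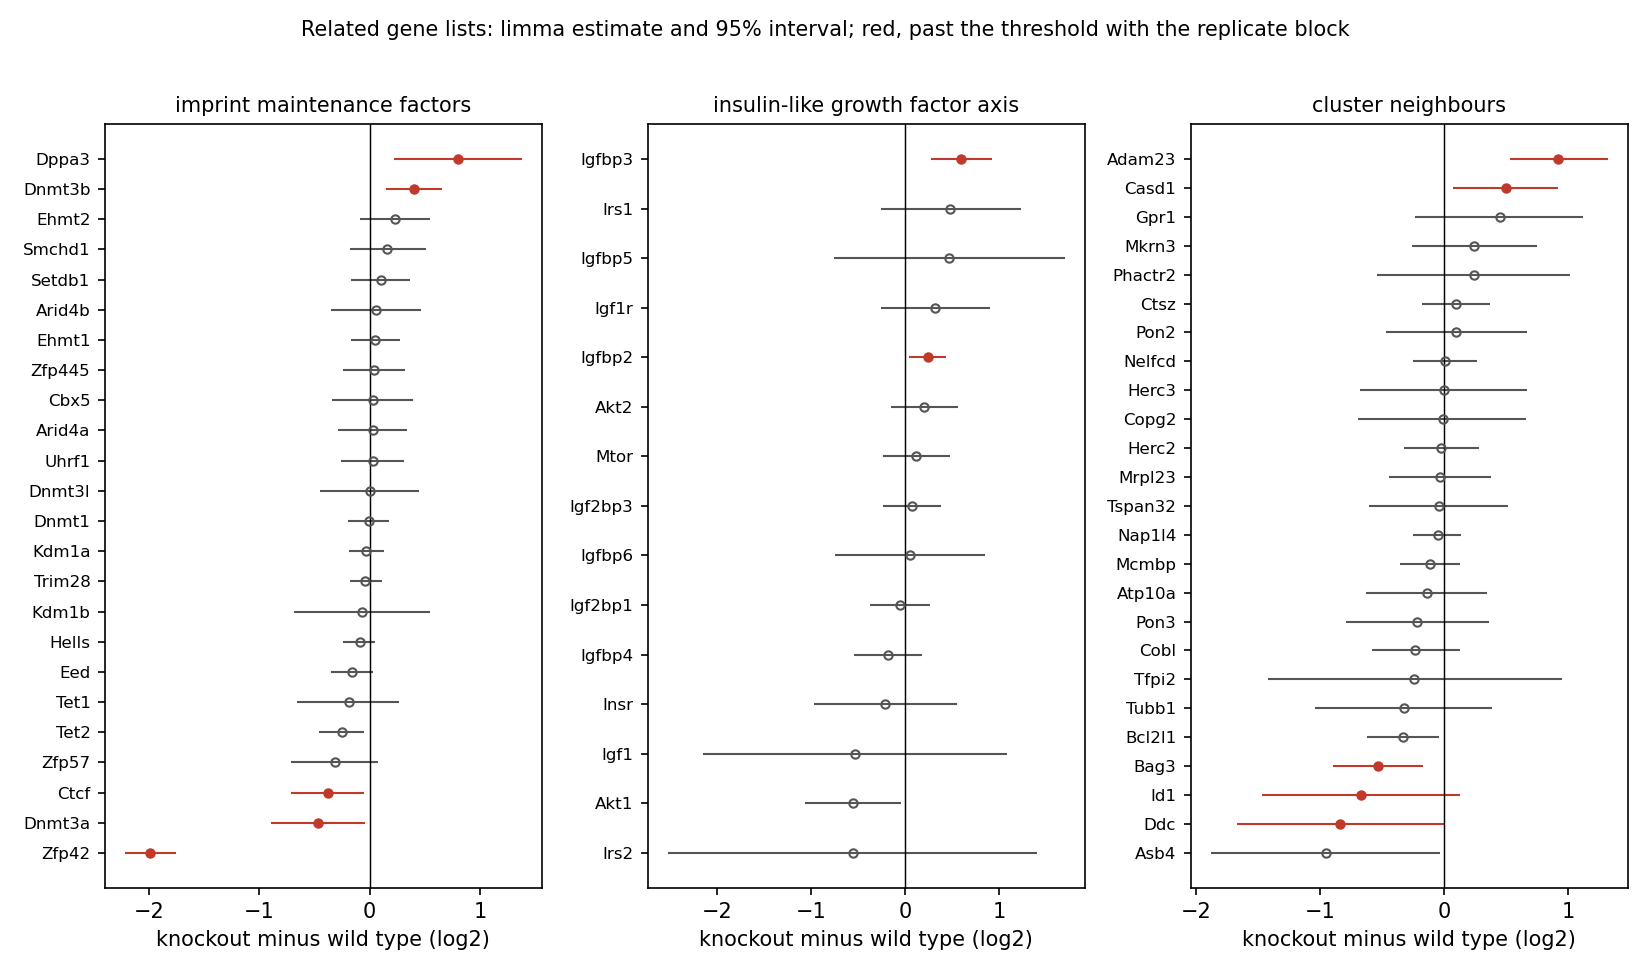
Knockout minus wild type difference in log2 signal with its 95% interval (limma, 3 arrays per genotype) for genes that maintain imprints, the growth factor axis of Igf2 and the neighbours of the imprinted clusters. Filled red points passed the threshold with the replicate block; Zfp42 at -1.99 is the 1 gene of the lists that also passed without it.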

How the data were processed

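The authors deposited 1 table of log2 values for 45037 probe sets on 6 arrays. Per the submitters' processing notes the signals came from MAS5, whose version is not given in the sources used here. That the scale is log2 follows from the values, since back-transformed signals had 2% trimmed means of 497.0 to 497.3 on every array. They were used without renormalization or pseudocount. Folds of dim probe sets carry no bound against background, as no detection calls were used here. The number of arrays limits the precision.

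Probe sets were named from the platform annotation (34945 with 1 gene, 932 with several, 9160 unnamed here), with 34741 symbols updated by gene identifier against RefSeq GRCm38.p6. Probe sets with a mean below the 40th percentile (5.27) were left out, leaving 27022. The genotypes were compared in R 4.3.3 using limma 3.58.1 (lmFit, eBayes with an intensity trend, two-sided, Benjamini-Hochberg over all tested probe sets, threshold 0.05), and the fit was tested on simulated data. Lists were counted at each gene's brightest tested probe set, with no set test.

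Replicate numbers in the titles were taken to pair the genotypes. Deviations from the genotype means correlated, across probe sets, at 0.50, 0.23 and 0.24 within numbers 1, 2 and 3, against -0.37 to 0.23 between unlike numbers. Only number 1 stood apart by these values. Wild type array 2 correlated with knockout array 3 at 0.23, as it did with knockout array 2. Wild type array 3 correlated with knockout array 2 at 0.17. The pairing within numbers 2 and 3 is therefore an assumption of the block. The labels do not say what a number shares. Blocked values are given beside each call they change.

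Members described in full were those past the threshold without or with the block and the brightest of each cluster, and from other lists up to 6 genes past it or the 2 brightest. The rest are given to account for every member. The members and lists were chosen with earlier results of these data known. Alternatives were the block, each array left out, no filter, quantile normalization, median centring and no intensity trend.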

Additional observations from a re-analysis of the deposited data

How the results depend on the processing

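With all arrays, 175 probe sets were called over the whole table, and 1 among the imprinted genes. The replicate block gave 2129 and 6, omission of the number 1 arrays of both genotypes (a setting added after seeing the data) 2033 and 7, and no intensity trend 57 and 0. Leaving out single arrays gave 31 to 431 and 0 to 2. Calls among imprint maintenance factors went from 1 to 5 with the replicate block and to 5 without both arrays numbered 1. In the latter setting the counted Dnmt3a probe set left and Ehmt2 (limma adjusted p = 0.0349) entered. The Dnmt3a probe sets 1423064_at and 1423065_at, not counted, passed there too. In the growth factor axis calls went from 0 to 2 and 1, and among cluster neighbours from 0 to 5 and 4, with 1 under quantile normalization. Apart from the calls given above, the block changed none at the probe sets named. Setd2 lost its call without the trend (-0.82, limma adjusted p = 0.0916) and without any single array other than knockout replicate 1 (-0.87 to -0.76 over all 6 omissions, and -0.76 was the one that kept the call). Among the probe sets recomputed under every setting (those called with or without the block, the brightest of each cluster, and Cdkn1c), differences near 0 changed sign, none of them called. Without both arrays numbered 1 these were Igf2 (-0.11), Gnas (-0.01), Ube3a (0.01) and Mcts2 (0.00). Over single arrays left out they were Igf2 (-0.12 to 0.26), Igf2r (-0.06 to 0.36), Mest (-0.23 to 0.03), Commd1 (-0.27 to 0.00), Ube3a (-0.20 to 0.09), Inpp5f (-0.24 to 0.05) and Mcts2 (-0.07 to 0.01). The cause was not tested. Zdbf2 kept its call with the block, without the filter, under quantile normalization and under median centring.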

Other observations

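Some member probe sets too dim to be tested lay apart between genotypes, and are named here after their values were seen. Plagl1 (1450533_a_at) read 4.93, 5.47 and 4.52 in wild type and 4.39, 2.31 and 2.58 in knockout cells. Airn (1457337_at) read 0.15, 0.90 and 1.25 against 2.01, 2.13 and 2.02. Another Airn probe set (1456139_at) had the opposite sign, with a difference of -1.11 and no overlap between genotypes. Ppp1r9a (1457603_at) read 5.72, 5.65 and 5.46 against 5.19, 4.90 and 2.39. These values carry no test.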
